A study of Homo sapiens with 36 samples.

Results

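The mitochondrial ribosomal protein genes are the nuclear genes whose symbol starts with MRPL (large subunit) or MRPS (small subunit) followed by a digit. Every row of the 3 deposited site tables that carries such a symbol was taken, with no use of measured values. This gave 777 distinct adenosines in 73 genes, of 82971 distinct adenosines in all. The HEK293T table listed 527 of them in 73 genes (of 57011 sites), the BE(2)-C table without retinoic acid 342 in 53 genes (of 22855), and the BE(2)-C table with retinoic acid 171 in 49 genes (of 21031). Of the 77 protein-coding RefSeq symbols that meet the rule, 72 had a listed site. MRPL13, MRPL21, MRPS22 and MRPS31 had no site listed under these symbols, and MRPL58 is listed under its older symbol ICT1, which does not meet the rule. The remaining member, MRPS36, is named KGD4 in current RefSeq and is now described as a component of the 2-oxoglutarate dehydrogenase complex. Its values are kept because its deposited symbol meets the rule.

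Mitochondrial ribosomes translate the few proteins encoded by mitochondrial DNA, all of them subunits of the oxidative phosphorylation complexes. Their proteins are encoded in the nucleus, translated in the cytosol and imported, so their mRNAs carry an ordinary 5′ cap. When the first transcribed nucleotide of a capped mRNA is adenosine, PCIF1 can add an N6-methyl group to it, which makes m6Am. Internal m6A is written by the METTL3 complex, mostly in the sequence context DRACH (D is A, G or T, R is A or G, H is A, C or T). A 5′UTR site and an internal site of one gene can therefore be products of different enzymes.

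The libraries came from m6ACE, which maps N6-methylated adenosines to single bases by crosslinking them to an antibody and trimming the RNA with an exonuclease. All cells are labelled wild type. In each of 3 settings there were 3 m6ACE libraries of cells given a PCIF1 siRNA (siPcif1) and 3 of cells given a scrambled siRNA (siScram). These were HEK293T, a human embryonic kidney line, BE(2)-C, a human neuroblastoma line, transfected for 24 hours and not treated with all-trans retinoic acid (ATRA, which differentiates these cells), and BE(2)-C transfected for 24 hours and then given 10 µM ATRA for 4 days. The deposited table of the group without ATRA is named for DMSO, a solvent that the labels do not mention. The labels call HEK293T neuroblastoma and repeat the BE(2)-C culture text for it, so the treatment of the HEK293T cells is unclear. Of 10 adrenergic neuroblastoma genes, 2 had listed sites in HEK293T (5 sites), against 9 in BE(2)-C without ATRA (539 sites) and 8 with ATRA (285 sites). The labels do not say whether the 3 libraries of a group are separate cultures. The spread that the p-values rest on may therefore be technical. The tables hold no RNA level, and the depletion of PCIF1 was not measured here. In these bulk libraries, less methylation per cell and fewer methylated cells cannot be told apart.

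The measured value is the relative methylation level (RML), a ratio per site and library that the authors computed. Neither its formula nor the read depth behind it is known here. The values come in steps. In the first HEK293T siPcif1 library the commonest value, 1.47, was shared by 2788 sites, and the next commonest values were exactly 2.0, 3.0 and 1.5 times it. In HEK293T, values shared by more than 20 sites of the same library made up 70.2% to 75.9% of each library, against 15.1% to 25.8% in BE(2)-C without ATRA and 6.0% to 23.6% with ATRA. Among the mitochondrial ribosomal protein sites in HEK293T, such shared values made up 70.2% of 5′UTR values and 24.9% of internal values (78.2% and 69.7% over all genes). One library stood apart: in BE(2)-C without ATRA the first siScram library had a median RML of 1.69 over all internal sites, against 2.57 and 3.06 in the other siScram libraries and 1.43, 1.75 and 1.60 in the siPcif1 libraries.

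The sequences below show where the main sites lie. Each is the 25-base sense-strand window around a listed adenosine, with the deposited 5-base motif in capitals and the adenosine in the middle of it. The windows were read from RefSeq promoter sequence (GRCh38.p14), which matched the deposited motif at all 181, 35 and 24 member sites in HEK293T, BE(2)-C without ATRA and BE(2)-C with ATRA that its windows covered. The first set holds sites whose mean RML was lower in siPcif1 cells in at least 1 setting described below, with the distance in nucleotides from the nearest RefSeq transcript start, where 0 is the first base of the transcript and negative values lie upstream.
MRPS35 (8): tgccgtcctcGCAGCcatggcggcc
MRPL20 (15): tccgacccggGCAAGatggcagcgg
MRPL51 (14): agctgcctggGTAAGgcccaagatg
MRPS18B (18): tgtcctgggcGTACGtcaagatggc
MRPL27 (-4): tttcgagaccGGAAGtgagtgatcg
MRPL46 (-7): gagccgcggtGCATTgtgggagaac
MRPL28 (0): gccaggcgcgGCAGAtcggcttccg
MRPL9 (0): ccctcaggtcTCATTctgtgcctgt
MRPS11 (0): ctgactggggTCAATtcaagtcatg
They lie at chr12:27710828-27710852 (plus strand), chr1:1407266-1407290 (minus), chr12:6493236-6493260 (minus), chr6:30617846-30617870 (plus), chr17:50373176-50373200 (minus), chr15:88467383-88467407 (minus), chr16:370526-370550 (minus), chr1:151763484-151763508 (minus) and chr15:88467696-88467720 (plus). All are annotated by the authors as 5′UTR, and none has a DRACH motif. The next set holds start-base sites that share a motif or its core but did not move alike in HEK293T.
MRPL55 (0): gcagcgcctgCCAGTgacgtcgtgg
MRPL47 (0): acgcgttttgCCAGTtatgcgaaaa
MRPL33 (0): tgccccggaaGCAGTtgttgttggt
They lie at chr1:228109287-228109311 (minus), chr3:179604626-179604650 (minus) and chr2:27771707-27771731 (plus). The last set shows coding sites at which the adenosine is followed by TG, close to the transcript start.
MRPL27 (14): gtgatcgaaaGCATGgcgtcggtgg
MRPS34 (15): cgcggacccgCCATGgcgcggaaga
MRPS26 (17): ggagactcggCCATGctacgcgcgc
They lie at chr17:50373158-50373182 (minus), chr16:1773107-1773131 (minus) and chr20:3046057-3046081 (plus).

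In HEK293T, 5′UTR sites were the commonest class among the mitochondrial ribosomal protein genes. They numbered 210 of 527 sites (39.8%), against 21.7% of all sites in that table. A further 199 lay in coding sequence, 115 in 3′UTRs and 3 in introns. At least 1 5′UTR site was listed for 70 of the 73 genes, and MRPL40 and MRPS21 had the most, 9 each. DRACH was rare in the 5′UTR sites (13 sites, 6.19%, against 8.66% over all genes) and made up 52.5% of the internal sites (60.3% over all genes). The base before the adenosine was C at 115 of the 5′UTR sites (54.8%, against 58.4% over all genes), and the motif with C, G or T, then C, then the adenosine was present at 112 (53.3%, against 54.7%). GCAGC was the commonest 5′UTR motif (13 sites), and GGACT was the commonest internal motif (27 sites). No test of these shares was run.

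In BE(2)-C the same genes, like all genes there, were listed mainly for coding sites. Without ATRA the table held 37 5′UTR sites (10.8%, against 9.39% over all genes), 239 coding sites (69.9%, against 63.2%), 63 3′UTR sites and 3 intronic sites. With ATRA it held 27 5′UTR sites (15.8%, against 10.0%), 111 coding (64.9%, against 58.9%) and 33 3′UTR sites. None of these 5′UTR sites had a DRACH motif (6.33% over all genes without ATRA and 6.08% with ATRA). Of the internal sites 20.5% without ATRA (22.5% over all genes) and 24.3% with ATRA (24.8% over all genes) did. A few genes held much of the list: MRPL12 and MRPL14 had 39 sites each without ATRA, MRPS34 had 31, MRPL27 had 22 and MRPS12 had 20, together 44.2% of the sites. Sites of 1 gene are neighbours on 1 mRNA and are not independent.

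The 5′UTR sites lay near transcript starts in all 3 tables. Of those with a RefSeq start on their strand, 88 of 192 lay within 10 nt of it in HEK293T (45.8%, against 38.3% over all genes). The counts were 27 of 37 in BE(2)-C without ATRA (73.0%, against 45.5%) and 19 of 26 with ATRA (73.1%, against 47.0%). The start base itself was listed at 24 sites in HEK293T (12.5%, against 17.5% over all genes). It was listed at 12 in BE(2)-C without ATRA (32.4%, against 25.1%) and 13 with ATRA (50%, against 27.5%). Levels were highest within 10 nt. In HEK293T siPcif1 and siScram cells, sites within 10 nt had a median RML of 3.31 and 5.49, those 11 to 50 nt away 1.13 and 2.46, and those farther away 1.93 and 2.17.

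In HEK293T, RML was lower in siPcif1 cells at most 5′UTR sites of these genes, and internal sites showed no shift. Over the 210 5′UTR sites the library medians of RML were 1.67, 1.91 and 2.23 in siPcif1 cells and 3.74, 3.59 and 3.32 in siScram cells, so the groups did not overlap. On the log2(RML + 0.298) scale, in which the added pseudocount understates changes of low sites, the medians averaged 1.15 ± 0.182 in siPcif1 and 1.94 ± 0.0819 in siScram cells (SD, n = 3 each), a difference of -0.79. Over all 5′UTR sites of the table that difference was -0.69. The 314 internal sites had library medians of 0.974, 0.813 and 0.957 in siPcif1 cells and 0.906, 0.875 and 0.884 in siScram cells, which overlapped (difference 0.03 on the log2 scale, as over all genes). The 5′UTR median minus the internal median was 0.877 ± 0.215 in siPcif1 cells and 1.70 ± 0.0726 in siScram cells, a change of -0.82. Set against internal sites of all genes at a like level, a comparison chosen after the data had been seen, the 5′UTR sites had a median difference of -0.70 (-0.62 over all genes). With 3 libraries a group an exact permutation test cannot go below 0.1, and no p is given for medians over the members.

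**Figure D1:**
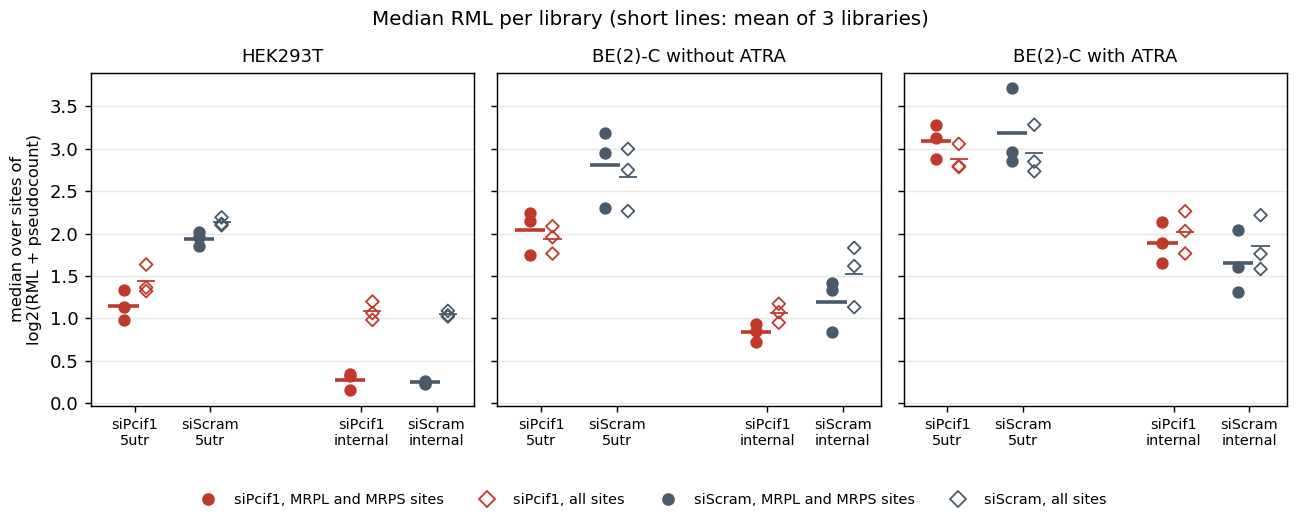
Each filled circle is the median of log2(RML + pseudocount) over the 5′UTR or internal sites of MRPL and MRPS genes in 1 library, open diamonds are the same over all sites of the table, and lines are means of 3 libraries. siPcif1 is left of siScram; in HEK293T the 5′UTR medians of the 3 siPcif1 libraries (0.977 to 1.34) lie below those of siScram (1.85 to 2.01), and the internal medians overlap.

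Site by site, the change was negative at 187 of the 210 HEK293T 5′UTR sites, with a median of -0.71 (-0.65 over all 12374 5′UTR sites). Among 5′UTR sites with at most 2 shared values, 51 of 56 member sites and 2065 of 2316 sites of all genes were negative. A site is listed when the authors' call passed in either group. Sites listed through the siScram call alone may lean toward a lower siPcif1 value. Such sites were not counted, and the background shares carry the same limit. All 3 siPcif1 libraries lay below all 3 siScram libraries at 85 sites (40.5%, against a background of 32.9% of all 5′UTR sites), and above them at 2 (background 0.937%). limma, fitted over the whole table with Benjamini-Hochberg adjustment, called 0 member sites at an adjusted p of 0.05, and 0 of all 57011 sites (0%). At an unadjusted p of 0.05 it had 79 member 5′UTR sites lower (background 30.3%) and 1 higher (background 0.42%). The authors' deposited p-values, adjusted in the same way, called 1 member site. The share of all sites called by those p-values is not given here, so this count has no background. The median change was -0.73 over 143 MRPL sites, of which 129 were negative, and -0.69 over 67 MRPS sites, of which 58 were negative.

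Median changes were set out by DRACH, preceding base and distance from the start, with no test of any. The 13 5′UTR sites with DRACH had a median change of -0.21 (-0.06 over all genes), and the 197 without it -0.73 (-0.70 over all genes). Among sites without DRACH, the median was -0.77 after C (115 sites), -0.65 after G (37 sites) and -0.76 after T (43 sites). Also without DRACH, it was -0.80 within 10 nt of a RefSeq start (84 sites), -0.69 at 11 to 50 nt (77 sites) and -0.66 beyond (18 sites). Over all genes the last 3 medians were -0.77, -0.72 and -0.44. With DRACH sites included, which are 6 of the 24 sites beyond 50 nt, the median there was -0.49. The median was -0.70 at 103 5′UTR sites whose 6 values were all shared by more than 20 sites, and -0.68 at 56 sites with at most 2 such values.

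**Figure D2:**
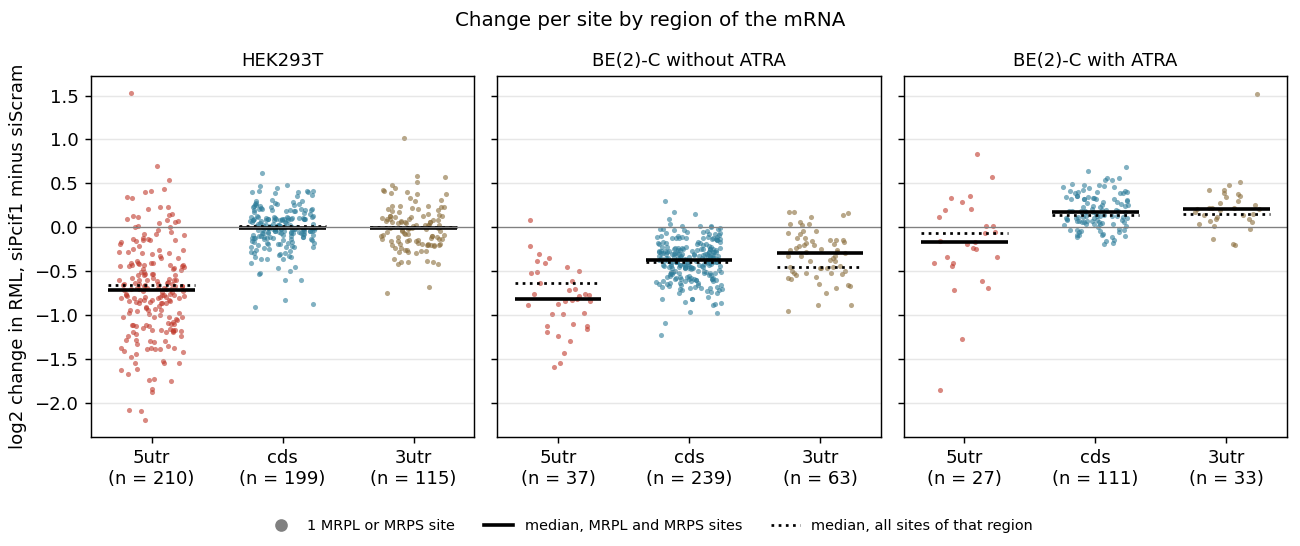
Each point is the log2 change in RML (siPcif1 minus siScram) of 1 MRPL or MRPS site by region of the mRNA, with the members' median as a solid line and the median of all sites of that region as a dotted line. The 5′UTR medians are -0.71, -0.81 and -0.16 in HEK293T, BE(2)-C without ATRA and BE(2)-C with ATRA, and the medians over internal sites (coding and 3′UTR) are -0.01, -0.36 and 0.18.

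Summarised per gene, 65 of 70 genes were lower in HEK293T siPcif1 cells. The gene level is the mean log2 level of the 5′UTR sites without DRACH, minus the library's median over internal DRACH sites of all genes. This measure was first used in an earlier analysis of these data, after its results had been seen. Calls at the gene level are therefore not independent support. The median change of the gene level was -0.79 (-0.74 over all 5069 genes, of which 92.3% were negative). limma called 5 members lower at an adjusted p of 0.05 over all genes (7.14%, against a background of 4.28%) and 0 higher. The siPcif1 libraries lay below all siScram libraries in 36 genes (51.4%, background 41.1%), and 29 were lower at an unadjusted p of 0.05 (background 35.8%). The 5 called genes rest on the full set of libraries: without any 1 of the 6 libraries, 0 members were called.

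The 5 called genes encode proteins of both subunits. MRPS35, a small-subunit protein, has 1 site in its 5′UTR (chr12:27710840), with RML of 0.294, 0.523 and 0.624 in siPcif1 cells and 1.22, 3.04 and 2.53 in siScram cells. Its gene level fell by 1.67 ± 0.32 (log2, SE, limma adjusted p = 0.0404), and the groups did not overlap. All 6 of its RML values were shared by more than 20 sites of their library. MRPL20, a homolog of the bacterial protein of the same number that serves in large-subunit assembly, was carried by the adenosine at chr1:1407278. That site had 0.447, 0.944 and 0.595 in siPcif1 cells, against 2.00, 1.72 and 1.75 in siScram cells, and the gene level fell by 1.18 ± 0.25 (limma adjusted p = 0.0428). A DRACH site of the same 5′UTR, 21 nt upstream and outside the gene level, had 1.10, 2.39 and 9.37, against 4.07, 1.21 and 4.38, which overlapped.

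MRPL34, a small large-subunit protein, is the called gene with the most sites. Its 4 sites without DRACH lay between -43 and 12 nt of a RefSeq start, and at each the siPcif1 libraries lay below the siScram libraries. The start base (chr19:17305872) had 1.10, 0.957 and 1.04 in siPcif1 cells and 2.15, 2.28 and 2.85 in siScram cells. The gene level fell by 1.46 ± 0.30 (limma adjusted p = 0.0428). The fifth site, 8 nt from the start in a GGACC (DRACH) motif, had 0.184, 0.475 and 0.312, against 1.05, 0.876 and 1.58. Its estimate was -1.24 ± 0.24 (SE, limma adjusted p = 0.158), the largest decrease among the 13 DRACH 5′UTR sites.

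MRPL51 and MRPS18B complete the called set. MRPL51, a large-subunit protein, had 0.280, 0.665 and 1.10 at chr12:6493248 in siPcif1 cells and 1.91, 2.06 and 4.12 in siScram cells, and its gene level fell by 1.64 ± 0.36 (limma adjusted p = 0.0445). MRPS18B is 1 of several paralogs of the bacterial S18 protein. Its site at chr6:30617858 had 0.210, 0.717 and 0.250 in siPcif1 cells, against 2.67, 2.53 and 1.38 in siScram cells, a change of -1.88 ± 0.34 (SE, limma adjusted p = 0.158). Its start base (chr6:30617840) had 1.47, 2.24 and 4.99, against 10.7, 6.45 and 3.51, which overlapped. The gene level fell by 1.54 ± 0.37 (limma adjusted p = 0.0499). Shared values made up all 6 values of both MRPS18B sites, 5 at MRPL20 and 4 at MRPL51.

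**Figure D3:**
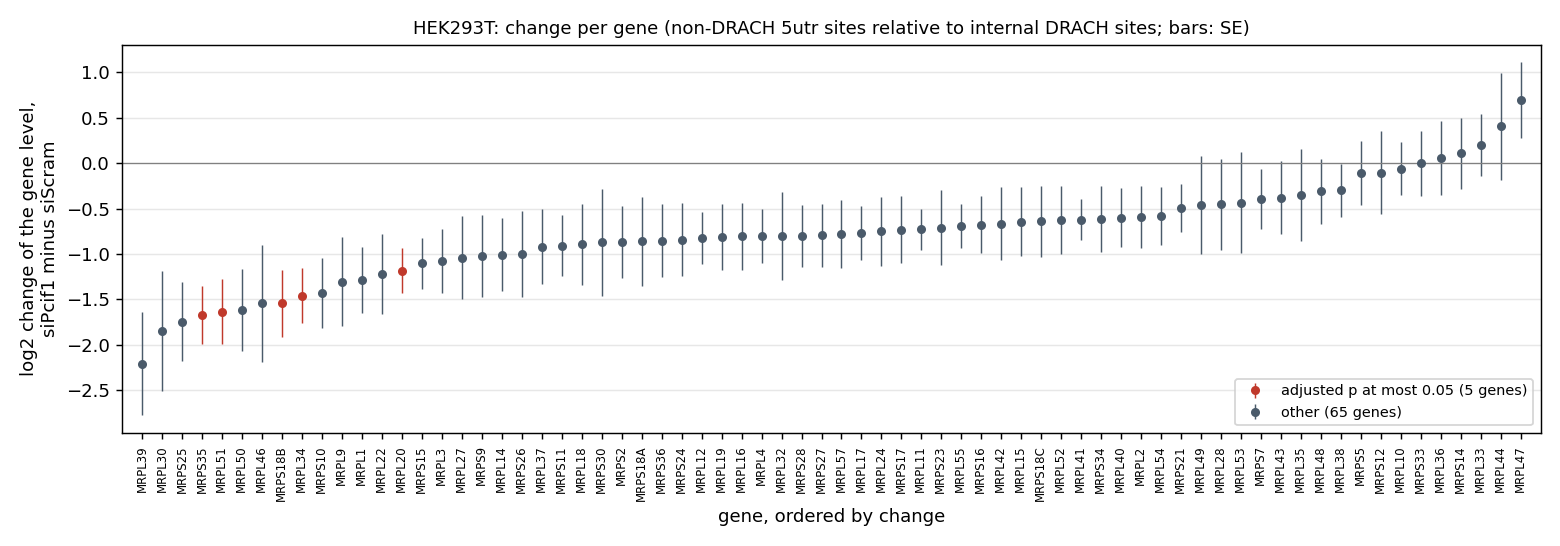
Log2 change (siPcif1 minus siScram) of the gene level in HEK293T for 70 MRPL and MRPS genes, ordered by change, with bars for the SE of the limma fit. Red marks the 5 genes with an adjusted p at most 0.05, and 65 of the 70 genes lie below 0.

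The largest changes were not those called. MRPL39, a large-subunit protein, had the lowest gene-level estimate, -2.21 ± 0.57. Its single site, 3 nt upstream of the start, had 0.367, 2.99 and 2.08 in siPcif1 cells and 5.09, 8.35 and 10.5 in siScram cells (limma adjusted p at the gene level 0.0527). The 5′UTR site with the highest mean RML in siScram cells belonged to MRPL46, a large-subunit protein found in mitochondrial but not bacterial ribosomes. It had 6.51, 6.61 and 14.2 in siPcif1 cells and 68.6, 11.4 and 19.9 in siScram cells (chr15:88467387). The groups overlapped and the site did not pass (change -1.53 ± 0.66, limma adjusted p = 0.395). The start base of MRPS26, a small-subunit protein, had 6.91, 12.7 and 23.3, against 19.1, 27.2 and 32.4, also with overlap (limma adjusted p = 0.499). MRPL3, a large-subunit protein conserved from bacteria, had the next smallest 5′UTR p after MRPS18B, MRPL34 and MRPS35, 35 nt from its start. It had 0.306, 0.534 and 0.431 in siPcif1 cells and 1.89, 1.33 and 0.913 in siScram cells, without overlap (-1.19 ± 0.26, limma adjusted p = 0.173).

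Several sites along 1 leader were lower side by side. In MRPL12, which forms the ribosomal stalk that engages translation factors, 7 sites spanned -5 to 104 nt. The site at 3 nt, TCATT, had 4.29, 11.1 and 34.1 in siPcif1 cells and 17.04, 49.7 and 30.2 in siScram cells, which overlapped (change -1.29 ± 0.72). The 5 sites from 25 to 104 nt had far lower RML, and in each the siPcif1 libraries lay below the siScram libraries. The farthest, at chr17:81703471, had 0.176, 0.141 and 0.178 in siPcif1 cells, against 0.550, 0.413 and 0.281 in siScram cells (change -0.61 ± 0.14, limma adjusted p = 0.182). MRPL55, a protein found only in mitochondrial ribosomes, also had 7 sites. Its start base, in CCAGT, had 6.74, 13.2 and 13.7, against 14.7, 22.5 and 19.0, without overlap, and its other 6 sites had estimates of -0.38 to -0.81. The one 23 nt from the start had 0.140, 0.236 and 0.202, against 0.622, 0.397 and 0.405 (-0.65 ± 0.14, limma adjusted p = 0.178).

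Some start bases went the other way. MRPL33, a homolog of the bacterial protein of the same number, had 10.3, 10.8 and 12.5 in siPcif1 cells and 7.63, 4.55 and 1.32 in siScram cells at its start base (chr2:27771719). This was the largest 5′UTR increase among the members in HEK293T (1.53 ± 0.57, SE, limma adjusted p = 0.326), and the groups did not overlap. The second listed site of that leader, 46 nt on, had 0.0773, 0.365 and 0.486, against 0.953, 0.759 and 1.20, a change of -1.11 ± 0.27. MRPL47, a large-subunit protein at the exit of the peptide tunnel, had 7.35, 5.38 and 4.37 at its start base in siPcif1 cells and 3.81, 2.28 and 4.16 in siScram cells, also without overlap (0.70 ± 0.41, limma adjusted p = 0.560). All 6 values of each of these start bases were shared by more than 20 sites of their library. The CCAGT motif of MRPL47 is the one MRPL55 carries at its own start base. MRPL36 had the next largest increase, 14 nt upstream of its start (0.54 ± 0.42), with overlapping libraries.

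**Figure D4:**
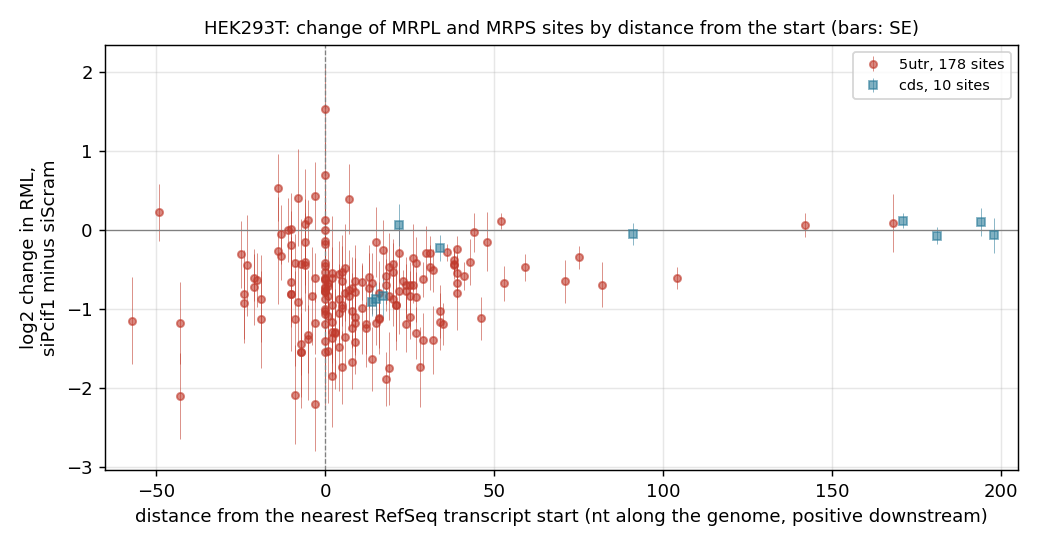
Log2 change in RML (siPcif1 minus siScram) of each MRPL and MRPS 5′UTR site (circles) and coding site (squares) in HEK293T against its distance in nucleotides from the nearest RefSeq transcript start, with bars for the SE. Sites within 50 nt lie mostly below 0, coding sites beyond 50 nt lie near 0, and the start bases of MRPL33 and MRPL47 stand above 0.

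A few coding sites close to a transcript start were lower in HEK293T siPcif1 cells. This group was chosen after its values had been seen, so no support is drawn from it. Of 5 coding sites within 50 nt of a RefSeq start, 3 carried the adenosine of an ATG, in MRPL27, MRPS34 and MRPS26, as printed above. MRPL27 had 0.404, 0.280 and 0.342 in siPcif1 cells and 0.763, 0.927 and 1.03 in siScram cells. MRPS34, a small-subunit protein whose loss causes a mitochondrial disease in people, had 0.446, 0.334 and 0.596, against 1.17, 1.13 and 0.935. MRPS26 had 0.551, 0.459 and 0.886, against 1.60, 1.57 and 0.909. These 3 had estimates of -0.91 to -0.83 with no overlap, against a median of -0.64 at the 74 such sites of all genes. The adenosine 5 nt downstream of the ATG site in MRPS26 had 1.11, 0.742 and 1.39 in siPcif1 cells and 0.953, 1.14 and 0.904 in siScram cells, which overlapped (change 0.07). The 184 coding sites beyond 50 nt had a median change of -0.01.

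Internal sites of these genes did not shift in HEK293T. Of 314 sites, 164 were lower, and the median change was -0.01 (0.01 over all 39747 internal sites). The libraries did not overlap at 24 sites that were lower (7.64%, background 5.4%) and at 18 that were higher (background 6.14%). limma called 0. Unadjusted, 7 sites were lower at p of 0.05 (background 3.05%) and 6 were higher (background 3.45%). The 165 internal DRACH sites had a median change of -0.00. The highest of them by siScram RML lies in the 3′UTR of MRPL35 (GGACT, chr2:86212665), with 11.8, 40.8 and 8.88 in siPcif1 cells and 11.2, 14.6 and 8.77 in siScram cells. MRPS26 and MRPL27 held the next highest, in coding sequence, with means of 7.77 and 6.69 in siPcif1 cells and 9.51 and 8.32 in siScram cells. The internal DRACH site with the smallest p, in the 3′UTR of MRPL18, a large-subunit protein, had 0.935, 0.793 and 0.666, against 0.153, 0.285 and 0.292 (1.02 ± 0.17, limma adjusted p = 0.157). MRPL57 had the next smallest p, at a coding GGACC site with 0.570, 0.474 and 0.572, against 1.03, 0.800 and 1.09 (-0.60 ± 0.20, limma adjusted p = 0.279). Internal levels were low: the median RML over internal member sites was 0.917 in siPcif1 and 0.894 in siScram cells, against 1.96 and 1.93 over all genes.

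The classes were also compared within single genes. In HEK293T, 52 members had both classes, and the 5′UTR sites changed more negatively than the internal sites in 48 of them (92.3%, against 89.0% of all such genes), by a median of -0.76 (-0.71 over all genes). The highest 5′UTR siScram level exceeded the highest internal one in 48 of the 52 (92.3%, against 78.0%). It did so in 9 of 13 genes in BE(2)-C without ATRA (69.2%, against 82.1%) and in 9 of 11 with ATRA (81.8%, against 83.6%). In BE(2)-C without ATRA the change was more negative in the 5′UTR in 12 of 13 genes (92.3%, against 81.0%), by a median of -0.55 (-0.34 over all genes). With ATRA it was so in 10 of 11 (90.9%, against 74.2%), by -0.31 (-0.22 over all genes).

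In BE(2)-C without ATRA, 5′UTR RML of these genes was lower in siPcif1 cells, and internal RML was lower too. Library medians over the 37 5′UTR sites were 2.86, 4.22 and 3.92 in siPcif1 cells and 4.44, 7.23 and 8.57 in siScram cells, without overlap (-0.77 on the log2(RML + 0.502) scale). Over the 302 internal sites they were 1.15, 1.40 and 1.31 in siPcif1 cells and 1.30, 2.02 and 2.18 in siScram cells, with overlap (-0.36). The 5′UTR minus internal difference was 1.21 ± 0.157 in siPcif1 cells and 1.61 ± 0.150 in siScram cells (SD, n = 3 each), a change of -0.40 (-0.27 over all genes). The siScram library that stood apart had the lowest median of its group in both classes. Without it the 5′UTR change was -1.02, the internal change -0.54 and the change of their difference -0.48. Relative to internal sites of all genes at a like level the 5′UTR change was -0.19 (-0.07 over all genes). With each library centred on its median or on its internal DRACH sites, the 5′UTR change was -0.29 or -0.26, and the internal change turned to 0.12 or 0.15.

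At single sites the change was negative at 36 of the 37 5′UTR sites (median -0.81, against -0.64 over all genes) and at 284 of 302 internal sites (-0.36, against -0.41). Most sites of all genes were negative too. Among sites with at most 2 shared values, 1486 of 1542 5′UTR sites and 15728 of 16407 internal sites of all genes were negative. For the members these counts were 22 of 22 and 275 of 293. The siPcif1 libraries lay below the siScram libraries at 12 5′UTR sites (32.4%, background 37%) and 72 internal sites (23.8%, background 25.8%). At an unadjusted p of 0.05, 19 5′UTR sites (background 36.5%) and 61 internal sites (background 25.1%) were lower. limma called 2 5′UTR sites (background 8.57%), 1 internal site (background 3.12%) and 3 of all member sites lower (background 3.69%), and 0 higher (background 0.0219%). The fit shared its variance almost wholly between sites (91420 total degrees of freedom), which makes its p-values small. With the libraries centred 0 member sites were called, and 191 member sites were called lower without the first siScram library (55.8%, against 53.4% of all sites called in that fit).

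MRPL27 had the smallest p and encodes a homolog of the bacterial protein of the same number at the peptidyl transferase centre. Its adenosine 4 nt upstream of the RefSeq start (GGAAG, chr17:50373188) had 1.59, 1.03 and 0.947 in siPcif1 cells, against 3.53, 6.67 and 3.45 in siScram cells. The groups did not overlap, and RML fell by 1.54 ± 0.33 (log2, SE, limma adjusted p = 0.00164). Over the other settings its adjusted p ranged from 4.85e-05 to 0.217. The neighbouring site 5 nt on was listed in all 3 tables, with estimates of -1.08 in HEK293T, -0.84 without ATRA and -0.44 with ATRA.

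MRPL46 was called at the adenosine 7 nt upstream of its start (GCATT, chr15:88467395). It had 2.65, 6.33 and 1.99 in siPcif1 cells and 4.07, 7.23 and 41.4 in siScram cells, which overlapped (-1.60 ± 0.43, limma adjusted p = 0.0181). The third siScram library made this value: without it the change was -0.66 (limma adjusted p = 0.512). The site at 1 nt had 6.20, 7.83 and 5.10, against 12.3, 12.3 and 22.4, without overlap (-1.20 ± 0.50, limma adjusted p = 0.127). MRPL46 lies head to head with MRPS11, with RefSeq starts 320 nt apart on opposite strands of chr15. The start base of MRPS11, a small-subunit protein, had 4.05, 6.87 and 5.98 in siPcif1 cells and 6.35, 13.7 and 21.6 in siScram cells, which overlapped (-1.10 ± 0.47).

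The internal call was in the coding sequence of MRPL16, a large-subunit protein (CCAGG, chr11:59806570), with 0.883, 1.03 and 1.29 in siPcif1 cells and 3.64, 3.26 and 2.62 in siScram cells (-1.23 ± 0.31, limma adjusted p = 0.0100). Its libraries did not overlap, and its motif is not DRACH. Below the threshold, MRPL50 had 3.97, 7.96 and 5.52 at 4 nt from its start, against 14.1, 19.1 and 15.3 (-1.44 ± 0.49, limma adjusted p = 0.0679). The start base of MRPS14 had 2.30, 3.77 and 7.83, against 9.78, 11.3 and 10.3 (-1.24 ± 0.44, limma adjusted p = 0.0812). Both separated the groups. Without the first siScram library they passed, at limma adjusted p = 0.0149 for MRPL50 and 0.0281 for MRPS14, in a refit that called 53.4% of all sites. Over the settings the limma adjusted p ranged from 0.0149 to 0.4585 for MRPL50 and from 0.01815 to 0.5359 for MRPS14. The highest 5′UTR site of the members in siScram cells, the start base of MRPL42, had 5.00, 15.2 and 14.6, against 14.5, 32.5 and 28.6, which overlapped (-1.16 ± 0.57). MRPL38 alone had a positive 5′UTR estimate (0.08). The highest internal DRACH site, in the coding sequence of MRPL27 (AAACT), had 4.25, 5.97 and 4.79, against 7.16, 11.3 and 10.9 (-0.89 ± 0.45, limma adjusted p = 0.188). The internal DRACH site with the smallest p, in the 3′UTR of MRPL10 (GGACA), had 1.12, 2.36 and 1.60, against 2.68, 4.08 and 3.69, which separated the groups (-0.88 ± 0.33, limma adjusted p = 0.0967).

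With ATRA the members' 5′UTR levels did not separate the groups. Library medians over the 27 sites were 7.87, 6.51 and 8.83 in siPcif1 cells and 6.95, 12.3 and 6.40 in siScram cells, which overlapped (-0.09 on the log2(RML + 0.857) scale). The 144 internal sites had medians of 3.56, 2.84 and 2.28 in siPcif1 cells, against 1.62, 3.26 and 2.19 in siScram cells (0.24). The 5′UTR minus internal difference was 1.20 ± 0.368 in siPcif1 and 1.53 ± 0.240 in siScram cells, a change of -0.33 that overlapped (-0.24 over all genes). Relative to internal sites of all genes at a like level the 5′UTR change was -0.34 (-0.23 over all genes). The change was negative at 17 of 27 5′UTR sites (median -0.16) and at 24 of 144 internal sites (median 0.18). Among sites with at most 2 shared values, 1089 of 1878 5′UTR sites and 4031 of 16282 internal sites of all genes were negative. For the members these counts were 16 of 22 and 24 of 142. The libraries did not overlap at 2 5′UTR sites that were lower (7.41%, background 9.03%), at 1 that was higher (background 2.61%), at 5 internal sites that were higher (background 4.79%) and at 0 that were lower (background 0.801%). limma called 0 member sites (0% of all 21031 sites), and the deposited p-values called 0. Unadjusted, 2 were lower at p of 0.05 (background 0.842%) and 2 were higher (background 2.03%).

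Of the 2 lower 5′UTR sites without overlap, MRPL28 had the larger decrease. This large-subunit protein had 14.4, 11.8 and 15.8 at its start base (GCAGA, chr16:370538) in siPcif1 cells, against 32.99, 42.9 and 29.98 in siScram cells, without overlap (-1.28 ± 0.44, limma adjusted p = 1.00). The same base had 12.6, 16.5 and 17.9 in HEK293T siPcif1 cells and 20.4, 41.4 and 11.3 in HEK293T siScram cells, which overlapped. MRPL54 also separated the groups at its start base, with 7.87, 8.58 and 6.19, against 13.1, 18.1 and 8.76 (-0.71 ± 0.35). MRPL32, a large-subunit protein that a mitochondrial protease matures, was higher 1 nt from its start, with 13.3, 16.5 and 9.21 in siPcif1 cells and 6.34, 7.97 and 6.06 in siScram cells (0.83 ± 0.34). MRPS28 had the lowest estimate (-1.85 ± 0.61), with 2.30, 3.68 and 9.39, against 11.6, 75.1 and 6.40, which overlapped. Its second siScram library was by far the highest, and without it the estimate was -0.85. It passed without the third siPcif1 library (-2.33, limma adjusted p = 0.000932) and without the first siScram library (-2.15, limma adjusted p = 0.00111). Outside the rule for named sites, a 3′UTR site of MRPL35 (TAAGG), 3 nt from the DRACH site above, had a mean of 17.7 in siPcif1 cells and 5.30 in siScram cells (1.52, limma adjusted p = 0.811).

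At the gene level limma called 0 members in BE(2)-C. Without ATRA 20 of 28 genes were lower (median -0.28, against -0.18 over all genes), 4 of them without overlap (background 14.9%) and 2 at an unadjusted p of 0.05 (background 11%). With ATRA 19 of 24 were lower (median -0.33, against -0.27), 5 of them without overlap (background 22.8%) and 6 at an unadjusted p of 0.05 (background 16.6%).

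Member sites were partly shared between the tables. HEK293T and BE(2)-C without ATRA shared 137, which is 26.0% of the HEK293T and 40.1% of the BE(2)-C sites. Over all genes they shared 7106, of 57011 sites in HEK293T and 22855 in BE(2)-C. The BE(2)-C tables shared 100 member sites (58.5% of those with ATRA and 29.2% of those without). Over all genes these shared 7800, of 21031 sites with ATRA and 22855 without. Of the member 5′UTR sites, HEK293T and BE(2)-C without ATRA shared 31 (14.8% of the HEK293T and 83.8% of the BE(2)-C sites). Over all genes that number was 1605, of 12374 and 2147 5′UTR sites. HEK293T and BE(2)-C with ATRA shared 24 member 5′UTR sites (11.4% of the HEK293T and 88.9% of the BE(2)-C sites). A 5′UTR site in every table was present for 20 genes, and 19 identical sites in 18 genes were in all 3. At these 19, the change was negative at 17 in HEK293T (median -0.69). Without ATRA it was negative at 19 (median -0.78), and with ATRA at 12 (median -0.16). All siPcif1 libraries lay below all siScram libraries at 9 of the 19 in HEK293T, 7 without ATRA and 2 with ATRA. The backgrounds over all 5′UTR sites of each table were 32.9%, 37% and 9.03%.

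**Figure D5:**
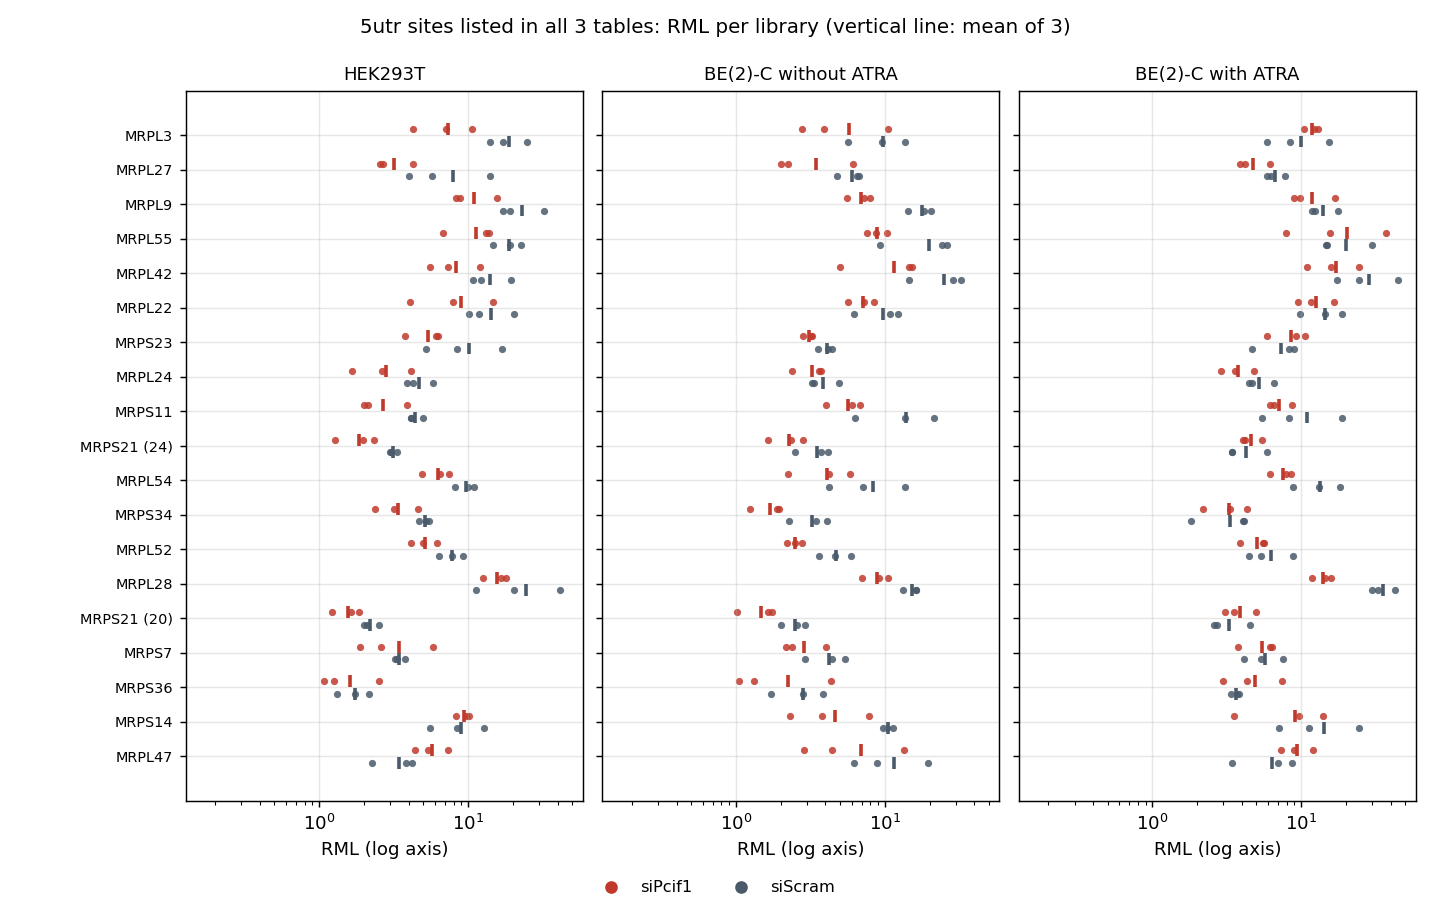
RML per library on a log axis at the 19 5′UTR sites of MRPL and MRPS genes listed in all 3 tables, siPcif1 above siScram in each row, vertical lines for means of 3 libraries. Rows are ordered by the HEK293T change, and a number in brackets after MRPS21 is the distance from its start in nucleotides; siPcif1 means lie below siScram means at every site in BE(2)-C without ATRA.

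Among the shared sites MRPL9, a homolog of the bacterial protein of the same number, is given as 1 example. Its start base (TCATT, chr1:151763496) had 8.33, 8.74 and 15.6 in siPcif1 and 17.2, 19.2 and 32.2 in siScram HEK293T cells. It had 7.29, 7.98 and 5.56, against 18.4, 20.4 and 14.3, in BE(2)-C without ATRA, and 16.97, 8.89 and 9.81, against 17.6, 12.3 and 11.8, with ATRA. The groups were apart in HEK293T and in BE(2)-C without ATRA and overlapped with ATRA. The MRPL9 site was called in none of the 3 settings (limma adjusted p = 0.407 in HEK293T and 0.112 without ATRA). Besides it, only MRPL52, MRPS34 and the MRPS21 site 20 nt from its start were apart in both HEK293T and BE(2)-C without ATRA. MRPL42, MRPL27, MRPL54, MRPS11, MRPL52, MRPL24, MRPL22, MRPL55, MRPL28 and MRPS7 had, with MRPL9, negative log2 estimates in all 3 tables. MRPS14 was unlike them in HEK293T, with 9.63, 10.1 and 8.29 in siPcif1 cells and 8.46, 5.55 and 12.8 in siScram cells. MRPL47 had positive estimates in HEK293T (0.70) and with ATRA (0.57) and a negative one in BE(2)-C without ATRA (-0.81). MRPL3, MRPS23, MRPS34, MRPS36 and both MRPS21 sites had negative estimates in HEK293T and without ATRA and positive ones with ATRA.

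Whether the change differed between settings was tested at shared sites as an interaction in limma. Between BE(2)-C with and without ATRA, 0 of 100 member sites were called (7 of all 7800, 0.0897%), and the median difference was 0.64 (0.54 over all genes). At an unadjusted p of 0.05, 20 member sites had a more positive change with ATRA (background 16.7%) and 0 a more negative one (background 0.128%). These 20 were 1 of 22 5′UTR sites (4.55%, background 15.6%) and 19 of 78 internal sites (24.4%, background 17%), and 11 of the 20 were internal sites of MRPL27. The smallest adjusted p, 0.125, was at the MRPL35 TAAGG site. Between HEK293T and BE(2)-C without ATRA, 0 of 137 were called (0% of all 7106). There, 10 member sites had a more positive change in HEK293T at an unadjusted p of 0.05 (background 12.5%) and 1 a more negative one (background 0.746%). The 10 were 2 of 31 5′UTR sites (6.45%, background 3.24%) and 8 of 106 internal sites (7.55%, background 15.6%). How the tables are scaled against each other is not known, and the first siScram library without ATRA enters both tests. Without it 3 member sites were called for ATRA (3.00%, background 3.26%) and 4 for HEK293T (2.92%, background 3.48%).

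Other genes of mitochondrial translation were read from a list chosen with earlier results of these data known. Its 63 genes encode aminoacyl-tRNA synthetases, translation factors, RNA modifiers, assembly factors and also mitochondrial ribosomal proteins under other symbols, such as DAP3, CHCHD1, AURKAIP1, GADD45GIP1 and ICT1. The list had 54 genes in HEK293T, 33 in BE(2)-C without ATRA and 27 with ATRA. In HEK293T, 77 of its 89 5′UTR sites were negative (median -0.64), its internal sites had a median of -0.02, limma called 0 sites (30 of its 5′UTR sites were lower unadjusted, 33.7%, background 30.3%), and 1 of 37 genes was called lower at the gene level (2.70%, background 4.28%). GTPBP3, which modifies mitochondrial tRNAs, had the smallest p, with 2.35, 2.58 and 4.68 in siPcif1 cells and 17.3, 21.6 and 12.9 in siScram cells 6 nt from its start (-2.35 ± 0.44, limma adjusted p = 0.158). A site of VARS2, a mitochondrial aminoacyl-tRNA synthetase, had an estimate of -2.08, and a second GTPBP3 site had -1.96. In BE(2)-C without ATRA 9 of the 254 sites of the list were called lower (3.54%, background 3.69%), 1 of them in a 5′UTR. That site, in GATC, a subunit of the mitochondrial glutamyl-tRNA amidotransferase, had 1.19, 1.81 and 3.79, against 3.80, 7.56 and 22.2 (-1.85 ± 0.40, limma adjusted p = 0.00148). With ATRA limma called 0 sites of the list, and 1 was lower and 4 were higher unadjusted.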

How the data were processed

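Per the file headers, the authors deposited 1 table per setting. Per the file headers, the authors gave an RML ratio for each of 18 m6ACE libraries, by a formula not stated, with p-values and a log2 fold change whose numerator is siScram. No column holds the 18 input libraries. Per the submitters' processing notes the authors used bcl2fastq 2.20, cutadapt 3.7, Bowtie2, STAR and DESeq2, on hg38. In every row the smaller of the authors' DESeq2 p-values for the 2 groups was at most 0.05, so only called sites are listed. Counting intervals need the read depth, which is unknown.

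Changes here are log2(RML + pseudocount), siPcif1 minus siScram, opposite in sign to the deposited column, with a pseudocount equal to each table's own 5th percentile (0.298, 0.502 and 0.857). limma 3.58.1 in R 4.3.3 (lmFit, eBayes with a variance trend, two-sided) was fitted over each whole table, with Benjamini-Hochberg adjustment at 0.05. Internal means coding or 3′UTR. Distances use the nearest RefSeq start. On simulated data with 200 sites lowered by 2, limma recovered 30.5% in HEK293T, 84.0% in BE(2)-C without ATRA and 71.5% with ATRA.

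The members and lists were chosen with earlier results of these data known. Named sites were those called, and per table the 6 5′UTR sites with the smallest p, the 4 highest in siScram, the 3 largest increases, the 3 highest internal DRACH sites and the 2 with the smallest p, members with a 5′UTR site in all 3 tables, and the 4 list sites with the smallest p in HEK293T, of which 1 is not reported here. Sites and genes printed beside these were chosen after their values were seen. Alternatives were other centring, pseudocounts and filter, no variance trend, the replicate block, the deposited p-values, a 100 nt window at the gene level and leaving out each library.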

Additional observations from a re-analysis of the deposited data

Results flagged for a closer look

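Results at 2 neighbouring MRPL27 3′UTR sites stood out because, in each, the siPcif1 libraries lay wholly on one side of the siScram libraries in one setting and wholly on the other side in another. The change at chr17:50367973 (TGACT) was 0.237 on the log2 scale in HEK293T and -0.456 in BE(2)-C without ATRA. As an interaction in limma that difference was 0.69 ± 0.35 (adjusted p = 0.376) and did not pass. The change at chr17:50367979 (TGATG) was -0.536 in BE(2)-C without ATRA and 0.223 with ATRA. Their difference, with ATRA minus without, was 0.76 ± 0.35 (limma adjusted p = 0.278) and did not pass.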

How the results depend on the processing

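Limits first: RML depth is unknown, values come in steps, how the tables are scaled against each other is not known, and 3 libraries a group set the precision. HEK293T site calls were 0 in every refit and 1 by the deposited p-values. The 5 HEK293T gene calls became 3 with the median as pseudocount, 0 with no variance trend, 0 with the replicate number as a block, and 0 to 0 without 1 library. With the median as pseudocount the HEK293T 5′UTR change was -0.49 and its difference from internal sites -0.50, and centring on the library median put the internal change at 0.15. In BE(2)-C without ATRA the 3 site calls became 0 with either centring, 0 with no variance trend, 0 by the deposited p-values, 27 with the replicate block, and 0 to 191 without 1 library. The replicate-block fit had 45710 total degrees of freedom. Its share of calls over all sites is not given here, so the 27 have no background. Centring on the library median or on internal DRACH sites gave a 5′UTR change of -0.29 or -0.26, and the internal change reversed to 0.12 or 0.15, because centring takes out a shift shared by the whole library. The like-level comparison gave -0.19. With ATRA, site calls were 1 with the replicate block and 0 to 2 without 1 library, and their shares over all sites are not given here. Interaction calls without 1 library were 0 to 3 (with against without ATRA) and 0 to 4 (HEK293T against BE(2)-C without ATRA). Whether replicate numbers pair the samples is not settled by the correlations of library deviations. For same-numbered libraries these were 0.00429 to 0.0202, 0.0048 to 0.116 and -0.309 to 0.062 in the 3 tables. For differently numbered ones they were -0.01705 to 0.00296, -0.061 to 0.0557 and -0.267 to 0.459. Without 1 library, the 5′UTR change ranged from -0.88 to -0.70 in HEK293T, from -1.02 to -0.58 in BE(2)-C without ATRA and from -0.25 to 0.18 with ATRA. Of 19 named sites tested over the settings, 213 values kept their side of the threshold, 20 lost it, 11 gained it and 0 changed sign. Only MRPL46, MRPL27 and MRPL16 in BE(2)-C without ATRA were called in the main fit. All 20 losses therefore lie at these 3 sites, and the other named sites had no call to lose. The cause of these moves was not tested.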
